A study of Rattus norvegicus with 56 samples.

Results

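The transcripts described here encode the proteasome of the rat, measured in hippocampus and parietal cortex after intermittent theta burst stimulation (iTBS) or a sham procedure. Genes were taken by their rat symbol, from Psma, Psmb, Psmc, Psmd, Psme, Psmf or Psmg followed by a number, with the immunoproteasome genes Psmb8 and Psmb9 left out and the brightest probe of a gene standing for it. This gave 45 of the 16581 genes named on the array. Of these, 43 encode subunits, activators, regulators or assembly factors of the proteasome. The pattern also took Psmc3ip, a factor of meiotic recombination named for its binding to a proteasome subunit, and Psme3ip1, which binds the activator encoded by Psme3. Both are kept apart as genes that encode no subunit. For 7 further symbols of the pattern (Psmb11, Psmb3l1, Psmb3l2, Psmb6l1, Psmg1, Psmg3 and Psmg4l1) no probe was named.

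The animals were male Long-Evans rats, young (6 to 7 months) or aged (26 to 27 months), and the labels class the aged ones as aged unimpaired (AU) or aged impaired (AI) by their learning in a water maze. The methods of the study describe the maze for the animals of another of its experiments and count fewer aged animals for this one, so the groups and their sizes here are those of the labels. All animals, sham included, were sedated with isoflurane and dexmedetomidine and given Antisedan to reverse it, and both regions were taken 48 h after the procedure. iTBS gives short high-frequency bursts of magnetic pulses through a coil above the head, and in sham animals the coil was kept at a distance. Each region of each animal was read on a 1-color Agilent array, with 4 Y_Sham and 4 Y_iTBS animals (Y, young), 4 AU_Sham against 5 AU_iTBS, and 4 AI_Sham against 3 AI_iTBS.

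The proteasome is the protease that degrades most short-lived and misfolded proteins of the cell after they have been tagged with ubiquitin. Its core particle (20S) is a barrel of outer alpha rings and inner beta rings, with the active sites on beta subunits. Its regulatory particle (19S) has a base, with a ring of ATPases that unfold the substrate, and a lid that removes the ubiquitin chain. Assembly chaperones help to build both particles, and other activators can bind the ends of the core in place of the regulatory particle. In neurons, proteasome activity is known for its part in synaptic plasticity and in protein quality control with age.

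Levels are given as normalized log2 signal, where each array was centered and scaled to the same mean and spread of log signal, so that 0 is the mean of an array. Probes differ in brightness for technical reasons, so levels are compared only between samples of one gene. All genes but 2 were well above background in all 24 animals of both regions. Psma8, a form of an alpha subunit known from testis, was well above background in 8 animals in hippocampus and 7 in cortex, and the spot of Psmb1 was left out for 1 cortex (AI_Sham 1), so that its values there rest on 23 animals. For 19 of the genes the RefSeq annotation holds a pseudogene of the same name, from which probe signal cannot be separated here. These are bulk tissues, so that fewer cells of a type and less RNA per cell cannot be told apart, and all p-values measure the spread between these animals only. The number of arrays limits the precision of every difference.

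Some arrays stood apart or did not match their label. Of 7 technical repeats, 6 were closest to the array they repeat. For the AI_iTBS 2 cortex, the repeat had r = 0.0459 with the array it should match, the ninth best of the 24 cortex arrays, and r = 0.442 with the AI_Sham 2 cortex. Which of these arrays carries the wrong label, if any, could not be settled. The iTBS differences of Psma8, Psma5, Psmb2 and Psmb6 in AI cortex are therefore also given without either animal. Most other values that include AI cortex arrays are given only with both animals in. Repeats were not used for the values below, and 1 array whose title and description name different animals entered no comparison. First arrays lay on 7 slides, of which 2 held both regions, and were scanned on 3 dates. Both regions of 15 animals were scanned on the first date. The region labels were matched by marker genes, since 4 of 5 hippocampus markers were higher in hippocampus, with a median difference of 1.51, and 5 of 5 cortex markers were higher in cortex, with a median of -1.48.

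Between animals of a group, proteasome transcripts varied little. In hippocampus the median SD of the 42 genes for subunits and factors other than Psma8 was 0.152, against 0.191 for the 13771 probes in the same range of levels and 0.262 for all probes. In cortex it was 0.208 for 41 of them, against 0.260 and 0.347. The compared probes share the range of levels but not the distribution within it, and its part in the smaller SD was not tested. The genes also moved together to some degree from animal to animal. With group means removed, the mean correlation over the 861 pairs of these genes in 24 hippocampi was 0.175, with 67.7% of pairs positive, against a mean of 0.041 for probes in the same range of levels. In cortex the mean over 820 pairs was 0.0727, with 55.4% of pairs positive, against 0.0206. These are descriptions, since all genes of an animal share 1 array and its scaling. With quantile normalization in place of the z-score, the mean was 0.105 in hippocampus and 0.057 in cortex, against 0.0047 and 0.0034 for probes in the same range of levels. The genes that followed the others most closely in hippocampus encoded core subunits, namely Psmb3 (mean r 0.376), Psma1 (0.356), Psma7 (0.335), Psmb6 (0.308) and Psmb2 (0.304). Those that followed them least were the activators Psme3 (-0.14) and Psme4 (-0.099) and the alpha subunit Psma2 (-0.084). This order depended in part on slide. With slide means removed as well, Psma7, Psmb3 and Psma1 stood highest and Psmb2 was at 0.242. Psme1 was then lowest (-0.254), with Psma2, Psme3 and Psme4 at -0.07, -0.044 and -0.026.

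Since these transcripts varied together, their promoters are shown for the gene with the highest such mean correlation among holders of each of 3 short motifs, a choice made after the values were seen. The RefSeq table of promoters (assembly GRCr8) held 41 of the 45 genes, and the 250 bases before the start site were searched on both strands. TGACNNNGC, the core of the antioxidant response element bound by NRF factors, was in 7 of the 41 (17.1%) and in 10.1% of all 33469 promoters. CCAAT, the box bound by NF-Y, was in 20 (48.8%) and in 34.0% of all. CCGGAAG, a motif of ETS factors, was in 13 (31.7%) and in 7.27% of all. Psmc3ip and Psme3ip1, which encode no subunit, were among the holders of CCAAT and of CCGGAAG, and Psma8 among those of CCGGAAG. The set of all promoters was not limited by kind of gene. None of the 3 motifs contains another. A match is a description of the letters and not a binding site, and nothing was measured here on the factors. Capitals mark the motif matches, and each stretch is written 5′ to 3′ on the strand of its gene. Psmb6 lies at chr10:55737638-55737887 on the plus strand and holds TGACNNNGC from 24 to 16 bases before the start. Psmb3 lies at chr10:83193537-83193786 on the plus strand and holds CCAAT from 65 to 61 and from 24 to 20 bases before the start. Psmd4 lies at chr2:185297202-185297451 on the minus strand and holds CCGGAAG from 148 to 142 bases before the start and CCAAT, read on the opposite strand, from 9 to 5.
Psmb6: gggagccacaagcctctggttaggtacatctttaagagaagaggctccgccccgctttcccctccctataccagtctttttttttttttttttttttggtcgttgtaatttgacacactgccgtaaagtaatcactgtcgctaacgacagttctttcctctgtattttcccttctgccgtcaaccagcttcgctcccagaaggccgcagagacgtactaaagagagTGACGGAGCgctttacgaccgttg
Psmb3: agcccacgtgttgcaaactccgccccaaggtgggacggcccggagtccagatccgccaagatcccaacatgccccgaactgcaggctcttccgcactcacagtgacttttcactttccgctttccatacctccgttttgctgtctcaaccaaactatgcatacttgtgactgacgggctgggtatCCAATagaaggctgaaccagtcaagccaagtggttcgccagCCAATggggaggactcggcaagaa
Psmd4: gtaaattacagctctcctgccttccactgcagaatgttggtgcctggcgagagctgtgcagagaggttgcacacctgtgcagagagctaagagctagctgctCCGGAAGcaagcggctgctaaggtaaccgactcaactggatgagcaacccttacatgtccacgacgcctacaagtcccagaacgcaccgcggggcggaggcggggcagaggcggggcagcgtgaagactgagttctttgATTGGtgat

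The comparison of regions asks which proteasome transcripts differ between hippocampus and parietal cortex of the same animal, as matched by the sample titles. Differences were small and went both ways. Transcripts of 3 assembly chaperones and of the alpha subunit Psma2 were higher in hippocampus, and those of several 19S base subunits, led by the ATPase Psmc5, were higher in cortex. A gene was called at a limma adjusted p under 0.05, adjusted over all probes tested. Of the 45 genes, 8 were called higher in hippocampus and 7 higher in cortex, together 33.3%. Of all 33717 probes tested, 49.1% were called, 26.1% as higher in hippocampus and 23.1% as higher in cortex. The median size of the difference was 0.098 for proteasome genes and 0.226 for all probes, and 23 of the 45 differed by less than 0.1. Among called genes, the largest differences were 1.22-fold toward hippocampus (Psmd5) and 1.26-fold toward cortex (Psmc5). The dim Psma8 had a larger estimate of -0.34 that was not called (95% interval -0.77 to 0.095, limma adjusted p 0.188), and it was -0.07 with normexp.

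**Figure D1:**
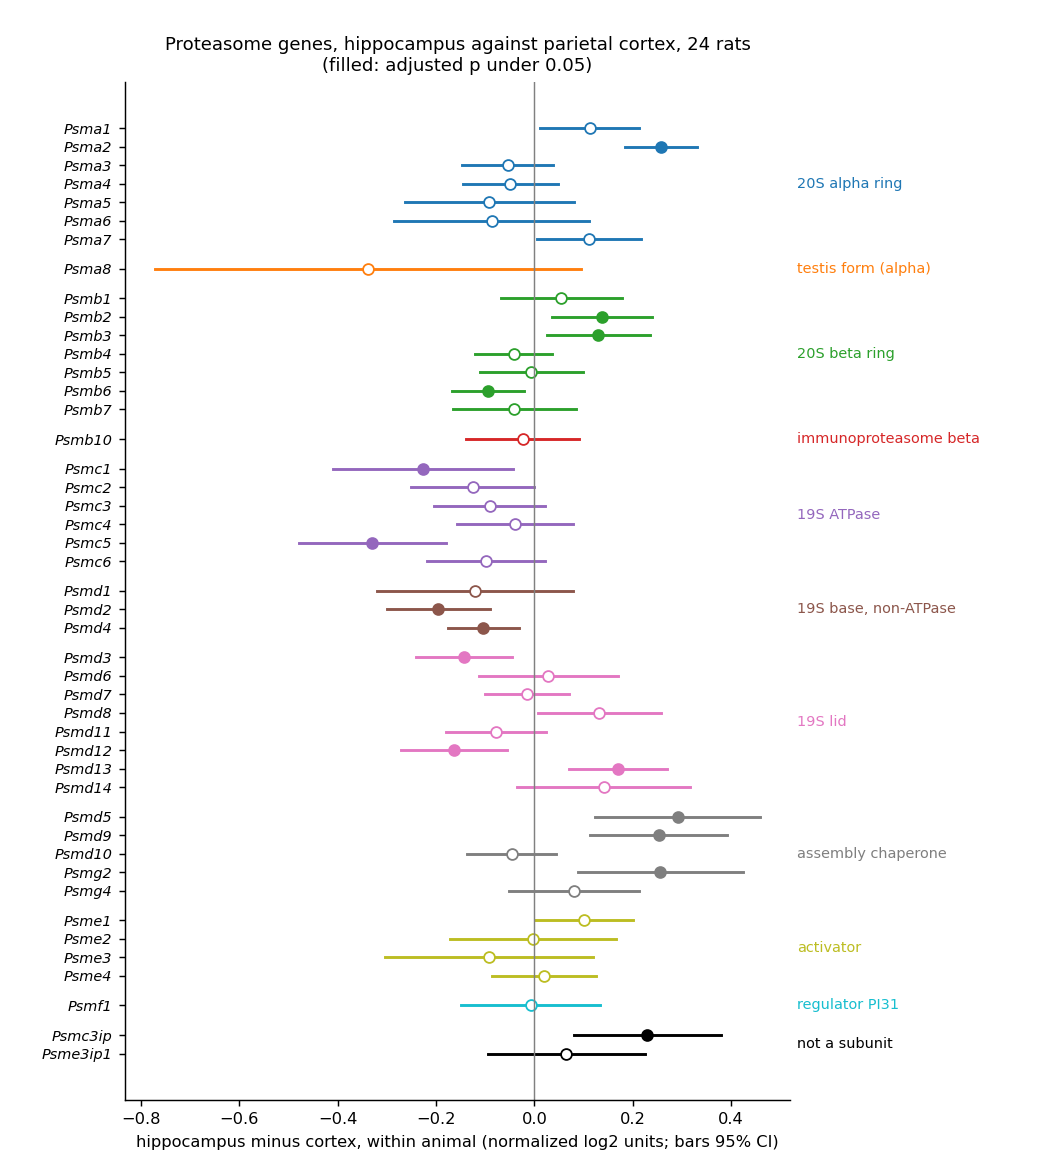
Difference between hippocampus and parietal cortex within each animal, in normalized log2 units, for the 45 genes by role; points are limma estimates, bars 95% confidence intervals, and filled points are called at an adjusted p under 0.05. The 6 ATPases and 3 base subunits all lie left of 0 (higher in cortex), and 4 of 5 assembly chaperones lie right of 0.

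Slide and scan date bear on all of these values. Since 5 of the 7 slides held 1 region, region and slide largely cannot be told apart, and with slide as a block no proteasome gene was called, and 0.845% of all probes. In the 15 animals with both regions scanned on the first date, 6 genes were called higher in hippocampus and 11 higher in cortex, beside 51.4% of all probes called. In the other 9 animals, 8 of which had their regions scanned on different dates, 2 of 43 genes tested were called higher in hippocampus and 1 higher in cortex, beside 34.8% of all probes called. Between these 2 sets of animals, 18 of 43 genes had opposite signs. The split also moved with the scaling of the arrays. It was 8 to 7 with the z-score, 11 to 4 when each array was set to its 75th percentile, 12 to 2 with quantile normalization, 13 to 3 with normexp background correction and quantile normalization, and 9 to 7 with the authors' z-score table. Under these scalings 48.3% to 49.9% of all probes were called. Of those calls, 48.2% to 53.8% were higher in hippocampus. Over these 5 scalings, 10 genes were called in the same direction each time, of which 8 were higher in hippocampus (Psma2, Psmb2, Psmb3, Psmc3ip, Psmd13, Psmd5, Psmd9 and Psmg2) and 2 higher in cortex (Psmc5 and Psmd3). Of these 10, 7 were also called in the 15 animals of the first date (Psma2, Psmc3ip, Psmc5, Psmd13, Psmd5, Psmd9 and Psmg2). The share of all probes called under all 5 scalings is not given here, so the 10 genes have no such share beside them.

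**Figure D2:**
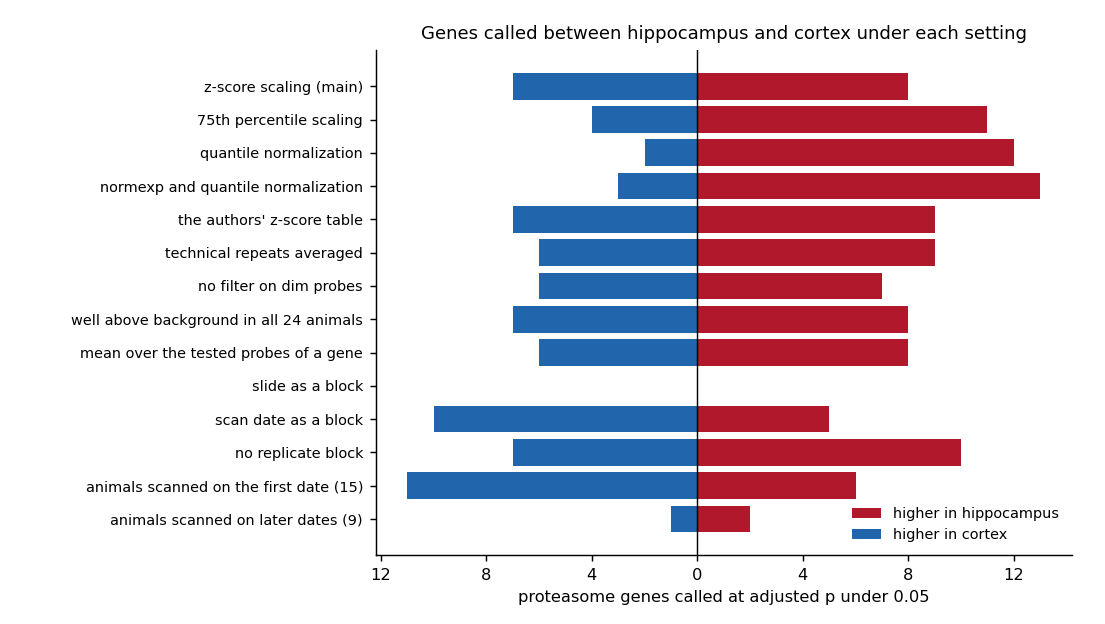
Number of proteasome genes called between regions under each setting, with genes higher in hippocampus to the right and those higher in cortex to the left. The total is 13 to 17 in all settings but 2, slide as a block (0) and the 9 animals scanned on later dates (3), and the split between directions moves with the scaling and the scan date. In the settings with 13 to 17 genes, 36.3% to 53.8% of all probes were called.

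Of the alpha ring, which gates entry to the core, 1 of 7 subunits was called. Psma2 ran from 4.49 to 5.35 in cortex, with a median of 5.03, and from 4.72 to 5.57 in hippocampus, with a median of 5.22. The regions overlapped between animals, but within an animal hippocampus was higher in 23 of 24. The difference was 0.26 (SE 0.035, limma adjusted p 3.22e-06), with 0.22 in the first-date animals and 0.31 in the others, both called. With slide as a block it was 0.01. RefSeq holds 2 pseudogenes named for Psma2. Psma1 (0.11, adjusted p 0.062) and Psma7 (0.11, adjusted p 0.076) were also higher in hippocampus in 20 and 19 of 24 animals and were called under 3 of the 5 scalings. Psma3, Psma4, Psma5 and Psma6 had estimates from -0.09 to -0.05 and were not called. Psma6 differed by -0.33 in first-date animals (limma adjusted p 0.0042) and by 0.31 in the others (not called). Psma5 differed by -0.21 in first-date animals (adjusted p 0.0261) and by 0.12 in the others (not called).

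Of the beta ring, Psmb2 and Psmb3, structural subunits without an active site, were higher in hippocampus. Psmb2 had a median of 7.40 in hippocampus (range 7.21 to 7.75) and 7.27 in cortex (6.84 to 7.55). Its difference was 0.14 (SE 0.049, limma adjusted p 0.0235), in 17 of 24 animals, but only 0.05 in first-date animals (not called) and -0.15 with slide as a block. Psmb3 differed by 0.13 (SE 0.05, adjusted p 0.0374), also in 17 of 24, but by 0.05 in first-date animals (not called) and -0.13 with slide as a block. It lost its call when any of 13 animals was left out, with adjusted p from 0.0517 to 0.0765. With the z-score over all 24 animals and no block, the subunits with the active sites differed by less than these. Psmb5, which carries the chymotrypsin-like activity, had medians of 7.40 in hippocampus and 7.36 in cortex, and its difference was -0.0059 (95% interval -0.11 to 0.098). Psmb7, with the trypsin-like activity, differed by -0.04 (95% interval -0.17 to 0.084). Psmb6, with the caspase-like activity, was lower in hippocampus, with a difference of -0.09 (SE 0.035, limma adjusted p 0.0295), in 19 of 24 animals. A second probe of Psmb6 gave -0.09 (adjusted p 0.214). The call of the brighter probe was made under 2 of the 5 scalings only and was lost when Y_iTBS 1, AI_Sham 3, AI_iTBS 2 or AI_iTBS 3 was left out, with adjusted p from 0.0511 to 0.0552. It held in first-date animals, with -0.13 (limma adjusted p 0.0275), a larger difference there than those of Psmb2 and Psmb3. With scan date as a block Psmb6 was -0.12 (adjusted p 0.0218), and Psmb2 and Psmb3 were 0.06 and 0.05 (not called). Psmb10, the immunoproteasome counterpart of Psmb7, differed by -0.02 (95% interval -0.14 to 0.09). Psmb8 and Psmb9, the other catalytic subunits of the immunoproteasome, were higher in hippocampus by 0.37 (limma adjusted p 1.81e-04) and 0.39 (adjusted p 6.08e-04).

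All 6 ATPases of the 19S base had a negative estimate, and so did the 3 other base subunits. The same sign held under the 5 scalings and in first-date animals, while in the other 9 animals 3 of the 6 ATPases and 1 of the 3 other subunits were positive. The size moved with the scaling. The median of the 3 other subunits was -0.12, but -0.029 with quantile normalization and -0.013 with normexp, and that of the ATPases was -0.11, -0.072 and -0.087. In hippocampus, mean levels of the base probes ran from 4.92 (Psmc4) to 9.47 (Psmc5). Those of the assembly chaperones ran from 2.45 (Psmg2) to 5.32 (Psmg4). Whether probe brightness bears on these differences was not tested. Psmc5 ran from 9.12 to 10.3 in cortex, with a median of 9.77, and from 9.10 to 9.76 in hippocampus, with a median of 9.48. It was higher in cortex in 20 of 24 animals. The difference was -0.33 (SE 0.072, limma adjusted p 6.75e-04), with -0.46 in first-date animals and -0.17 (not called) in the others. Its size depended on the scaling and was -0.13 with quantile normalization and -0.11 with normexp, both called. Psmc1 differed by -0.23 (SE 0.088, adjusted p 0.0382), and a second probe by -0.15 (adjusted p 0.00172). It was called under 2 of the 5 scalings, was positive (0.12) in the 9 later animals, and lost its call when any of 13 animals was left out, with adjusted p from 0.0512 to 0.0931. In first-date animals Psmc1 was called, with -0.43 (adjusted p 5.85e-04). Psmc2, Psmc3, Psmc4 and Psmc6 had estimates from -0.13 to -0.04 and were not called with the z-score over all 24 animals. Psmc2 was called in first-date animals (-0.26, limma adjusted p 0.00286) and with scan date as a block (-0.22, adjusted p 0.00808). In the later animals Psmc2 was 0.07 (not called).

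Among the other base subunits, Psmd2, a scaffold that binds ubiquitin shuttles, was higher in cortex in 19 of 24 animals. It ran from 8.10 to 8.76 in cortex and from 8.01 to 8.70 in hippocampus, with medians of 8.52 and 8.32. The difference was -0.20 (SE 0.05, limma adjusted p 0.0028), but -0.07 with quantile normalization and -0.08 with normexp, neither of them called. Psmd4, a receptor for ubiquitin chains, differed by -0.10 (SE 0.035, adjusted p 0.0166) and was called under 2 of the 5 scalings. Psmd1 differed by -0.12 (95% interval -0.32 to 0.079), with -0.38 in first-date animals (limma adjusted p 0.00433) and 0.27 in the others (not called).

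**Figure D3:**
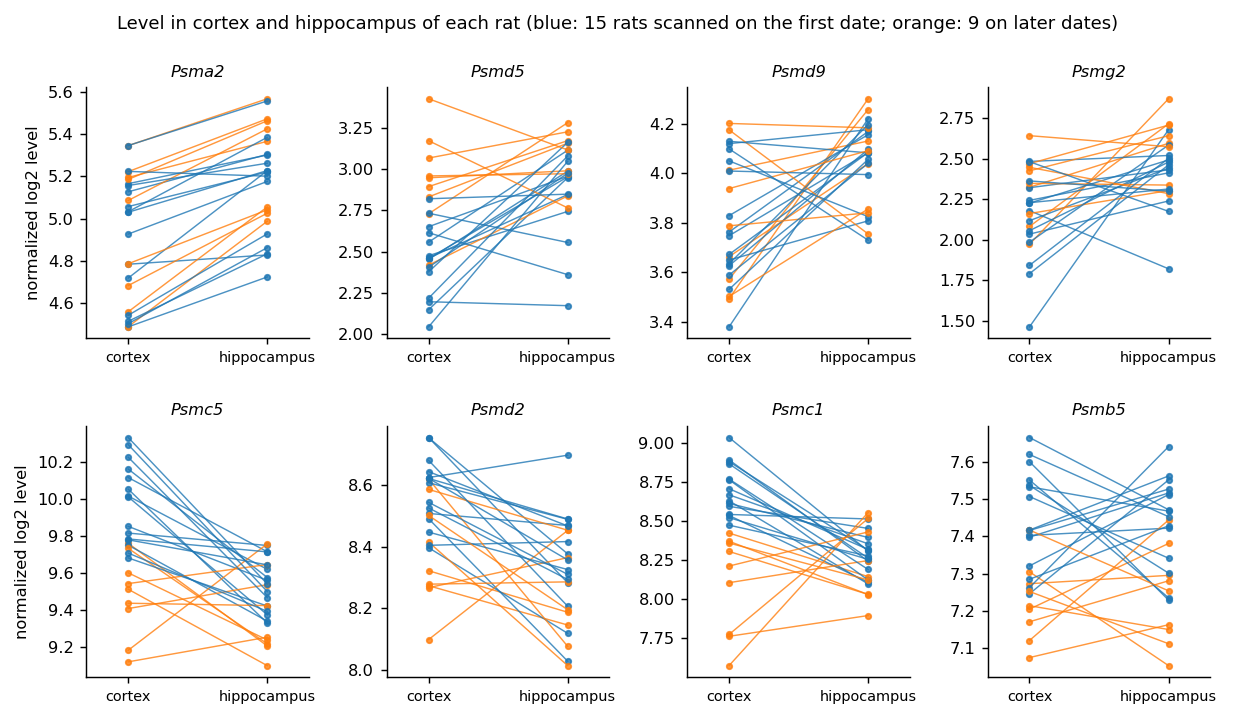
Normalized log2 level in cortex and hippocampus of each of 24 rats for 8 genes, the 7 called subunits and assembly factors with the largest difference and Psmb5; lines join the regions of a rat, blue for the 15 scanned on the first date and orange for the 9 scanned later. Psma2 goes up in 23 rats, Psmc5 goes down in all 15 blue rats and Psmd2 in 13 of them, and Psmb5 shows no common direction.

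The 8 lid subunits were divided, with a median difference of 0.0065. Psmd13, a structural subunit, was higher in hippocampus in 18 of 24 animals, with a difference of 0.17 (SE 0.048, limma adjusted p 0.00606), and 0.17 in both sets of scan dates. Psmd12 (-0.16, adjusted p 0.0122) and Psmd3 (-0.14, adjusted p 0.0157) were lower in hippocampus. Psmd12 was not called with quantile normalization (-0.08) and differed by -0.02 in the animals of later scan dates. Psmd14, the deubiquitinase of the lid, differed by 0.14 (95% interval -0.034 to 0.32), with 0.04 in first-date animals and 0.34 in the others. The other lid subunits ran from -0.08 to 0.13 and were not called with the z-score. Psmd6 was called with quantile normalization (0.12, limma adjusted p 0.0491) and with normexp (0.17, adjusted p 0.0286). Psmd8 was called with normexp (0.15, adjusted p 0.0488).

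Assembly chaperones had the highest median difference of the groups with more than 2 genes, 0.25, with 3 of 5 called higher in hippocampus. Psmd5, which holds base ATPases before the regulatory particle forms, ran from 2.17 to 3.28 in hippocampus, with a median of 2.97, and from 2.04 to 3.42 in cortex, with a median of 2.59. In 19 of 24 animals hippocampus had the higher level, and the difference was 0.29 (SE 0.081, limma adjusted p 0.00506). First-date animals differed by 0.43 and the others by 0.08 (not called). Psmd9, another chaperone of the base, differed by 0.25 (SE 0.067, adjusted p 0.00356), with 0.25 in first-date animals and 0.24 in the others. Psmg2, which helps to form the alpha ring, differed by 0.26 (SE 0.081, adjusted p 0.0121), with 0.30 and 0.24. Psmg4 (0.08, adjusted p 0.308) and Psmd10 (-0.05, adjusted p 0.398) were not called. A dim second probe of Psmg4, well above background in 5 animals in hippocampus and 11 in cortex, gave -0.52 (adjusted p 0.063). Under the 5 scalings, with either block and in both sets of scan dates 4 of 5 chaperones were positive, with the exception changing from Psmd10 to Psmg4 with either block and in first-date animals.

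None of the activators was called. Psme1, an interferon-induced subunit of an activator of the core, differed by 0.10 (95% interval 0.00073 to 0.20, limma adjusted p 0.0886), and it was called under the 4 other scalings. Its partner Psme2 differed by -0.0024 (95% interval -0.17 to 0.17), with -0.21 in first-date animals (limma adjusted p 0.0315) and 0.34 in the others (not called). Psme3, the nuclear form, differed by -0.09 (95% interval -0.30 to 0.12), with 0.12 in first-date animals and -0.50 (adjusted p 0.0457) in the others. Psme4, the large single-chain activator, differed by 0.02 (95% interval -0.085 to 0.12). Psmf1, a regulator that binds the core, differed by -0.0077 (95% interval -0.15 to 0.13). Of the genes that encode no subunit, Psmc3ip was higher in hippocampus by 0.23 (SE 0.071, adjusted p 0.0112), and Psme3ip1 was not called (0.07, adjusted p 0.507).

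Of 27 further genes of the ubiquitin and proteasome pathway, 21 were tested and 7 were called between regions, beside 49.1% of all probes. Beside Psmb8 and Psmb9, 2 were higher in hippocampus, namely Nfe2l2, which encodes a transcription factor of the oxidative stress response (0.30, adjusted p 0.0471), and the ubiquitin-activating enzyme Uba6 (0.39, adjusted p 0.0481). The 3 higher in cortex were the ubiquitin shuttle Ubqln4 (-0.36, adjusted p 0.0013), Sem1, a small lid subunit (-0.18, adjusted p 0.0351), and Ngly1, a deglycosylating enzyme (-0.17, adjusted p 0.0219). Pomp, the maturation factor of the core, differed by 0.00085 (95% interval -0.15 to 0.15). No probe was named for Uchl5, Ube3c, Nfe2l1, Ecpas, Paaf1 and Zfand5. Cell type markers differed between the regions too. Of 5 oligodendrocyte markers, 4 were higher in hippocampus and 1 in cortex (median 0.68), 3 of 4 astrocyte markers (0.27) and 2 of 5 microglia markers (0.23) were higher in hippocampus, as were 3 of 4 choroid plexus markers, the fourth being higher in cortex (median 1.34), and 3 of 6 neuron markers (-0.22) and 3 of 3 endothelium markers (-0.32) were higher in cortex. Their part in the proteasome differences was not tested.

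The comparisons of iTBS with sham ask whether proteasome transcripts differed 48 h after stimulation. No proteasome gene was called in any of them, in either region, under any setting run. In young animals, limma called 0% of 32415 probes in hippocampus and 0% of 32603 in cortex at an adjusted p under 0.05, and 0 of 45 proteasome genes had an unadjusted p under 0.05 in either region, against 5.08% and 2.9% of all probes. The median difference of the 45 genes was -0.03 in hippocampus (all probes -0.025) and -0.042 in cortex (-0.011). The smallest p in hippocampus belonged to the chaperone Psmg4, with Y_Sham levels of 5.33, 5.37, 5.32 and 5.21 and Y_iTBS levels of 5.30, 5.05, 5.10 and 4.98. These overlapped, with a difference of -0.20 (95% interval -0.44 to 0.044, limma adjusted p 0.871). In cortex it belonged to Psma1 (-0.23, 95% interval -0.48 to 0.011, adjusted p 1.00). Leaving out Psma8, the 95% interval of a gene reached at most 0.67 from 0 in hippocampus and 0.74 in cortex.

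In AU animals, 0% of probes in hippocampus and 0.0153% in cortex (5 probes) were called. In hippocampus 0 of 45 proteasome genes had an unadjusted p under 0.05 by limma, against 2.28% of all probes, and their median difference was -0.0047. In cortex 6 genes did, against 7.29% of all probes, with a median of -0.094 (all probes 0.043). Those 6 were Psmb4 (-0.25), Psmd2 (-0.29), Psme1 (-0.30), Psmb10 (-0.37) and Psmb2 (-0.26), lower with iTBS, and Psmc3ip (0.46), higher. Without AU_Sham 1, whose level of Psmc3ip lay far below the others, that difference was 0.16. The cortices of AU_iTBS 2 and 3 lay on slide 6, which held no sham first array. They and AU_iTBS 1 were scanned on date 2, as was AU_Sham 1, and the other AU cortices on date 1. Stimulation can thus only partly be told apart from slide and scan date here. For Psmb4, a structural beta subunit, AU_Sham levels were 7.87, 7.81, 7.89 and 8.02, and AU_iTBS levels were 7.69, 7.49, 7.54, 7.79 and 7.73. The groups did not overlap, and the difference had a limma adjusted p of 0.645. Among all probes 1.43% did not overlap in this comparison, and among proteasome genes Psmb4 and Psmd4 did not. The differences of Psmb4, Psmd2 and Psmb10 were -0.03, -0.05 and -0.22 with quantile normalization, and the median of the 45 genes was then 0.046. For Psmb10, AU_iTBS 2 and 3 were lowest, at 5.79 each, beside 6.31, 6.59 and 6.31 in the other stimulated animals and 6.40 to 6.65 in AU_Sham. With slide as a block its difference was -0.12, and in first-date animals -0.07.

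In AI animals, 0% of probes were called in hippocampus and 0% in cortex. In hippocampus 39 of 45 proteasome genes had a positive estimate, with a median of 0.076 against 0.0049 for all probes. Of these, 2 had an unadjusted p under 0.05 by limma, Psma1 and Psmb3, against 2.19% of all probes. Psma1 levels were 6.56, 6.35, 6.06 and 6.22 in AI_Sham and 6.63, 6.56 and 6.47 in AI_iTBS. The groups overlapped, with a difference of 0.26 (95% interval 0.0056 to 0.51, limma adjusted p 1.00). Psmb3 differed by 0.20 (95% interval 0.0043 to 0.40, adjusted p 1.00). The median over the genes was 0.05 to 0.071 under the other scalings, and -8.36e-05 in the animals scanned on later dates, 1 in each of these groups. All genes of an array share its scaling, so that their common sign is not 39 separate observations. In cortex 1 gene had an unadjusted p under 0.05, against 3.89% of all probes, and the median was 0.052 (all probes -0.012). That gene was Psma8, with AI_Sham levels of -4.37, -3.13, -1.92 and -4.54 and AI_iTBS levels of -2.12, -0.92 and -1.90. All 3 stimulated cortices and 1 of the 4 sham cortices were well above background. The difference was 1.85 (95% interval 0.72 to 2.97, limma adjusted p 0.92), and 0.44 with normexp, 1.49 without AI_iTBS 2 and 1.97 without AI_Sham 2. Psma5, Psmb2 and Psmb6 did not overlap between AI_Sham and AI_iTBS cortex, higher in the latter, beside 4.15% of all probes, with differences of 0.29, 0.23 and 0.18 (limma adjusted p 1.00 for each). These were 0.26, 0.20 and 0.14 without AI_iTBS 2 and 0.30, 0.21 and 0.15 without AI_Sham 2, and that of Psmb6 was -0.0062 with normexp.

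Over AU and AI animals together, 0% of probes were called in hippocampus and 0% in cortex. At an unadjusted p under 0.05 limma found 0 proteasome genes in hippocampus (2.89% of all probes) and 1, Psma8, in cortex (2.72%). The interaction, aged minus young iTBS effect, had 0% of probes called in hippocampus and 0% in cortex, with 0 proteasome genes at an unadjusted p under 0.05 in hippocampus (4.6% of all probes) and 1, Psma8, in cortex (3.2%). Since Psma8 was well above background in 7 of 24 cortices, the size of its differences depends on how background was treated. It was 1.27 over aged animals and 1.71 for the interaction, and 0.27 and 0.36 with normexp. The smallest p in hippocampus was that of the chaperone Psmd10, whose iTBS effect was 0.41 higher in aged than in young animals (95% interval -0.0057 to 0.83, limma adjusted p 0.757). Under the selection rule of the study's methods, as rebuilt here and run on 12 comparisons, 0 proteasome genes were selected, and 0.114% of all probes over those comparisons.

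**Figure D4:**
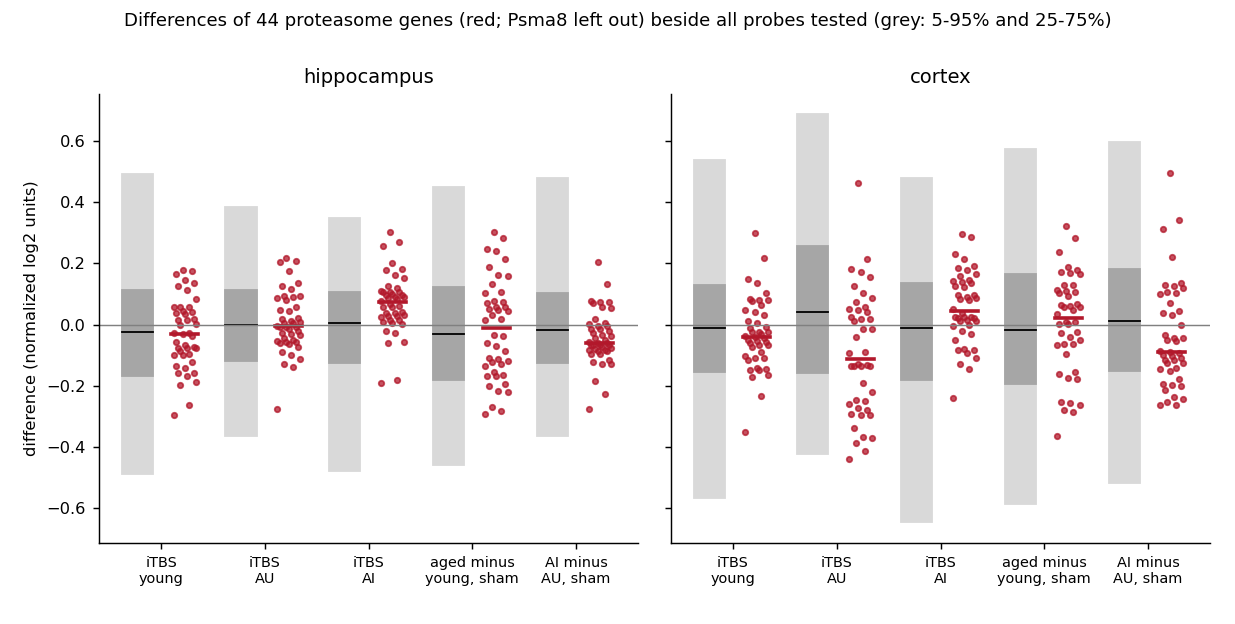
Differences of 44 proteasome genes (red points, Psma8 left out, red line the median) beside the 5 to 95% (light gray) and 25 to 75% (dark gray) range of all probes tested (black line the median), in normalized log2 units, for iTBS against sham in each age class, aged against young sham and AI against AU sham. All red points lie between -0.44 and 0.50, and the medians of all 45 genes lie between -0.09 and 0.08.

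Aged and young animals were compared after sham. No proteasome gene was called in either region, beside 0.00308% of probes in hippocampus (1 probe) and 0.117% in cortex (38 probes). In hippocampus 8 genes had an unadjusted p under 0.05 by limma, against 10.3% of all probes. Of these, the ATPases Psmc5 (0.30), Psmc1 (0.24) and Psmc2 (0.19), the scaffold Psmd2 (0.25) and the activator Psme1 (0.21) had higher levels in aged animals, and Psmd13 (-0.19), Psmd9 (-0.22) and Psme3ip1 (-0.28) lower ones. Psmc5 levels were 9.20, 9.24, 9.37 and 9.34 in Y_Sham, 9.22, 9.75, 9.58 and 9.72 in AU_Sham and 9.65, 9.47, 9.64 and 9.71 in AI_Sham. All aged animals but AU_Sham 1 lay above the young ones, and the difference had a 95% interval of 0.071 to 0.53 (limma adjusted p 0.451). It was 0.06 with quantile normalization and -0.0043 with normexp. Psme3ip1 differed by -0.28 (95% interval -0.50 to -0.069, adjusted p 0.447) and by -0.24 to -0.29 under the other scalings. In cortex 3 genes had an unadjusted p under 0.05 by limma, Psmd2 (0.24), Psmd4 (0.18) and Psma3 (-0.37), against 9.98% of all probes. Psmd4 levels were 7.23, 7.07, 7.23 and 7.22 in Y_Sham, 7.60, 7.32, 7.34 and 7.40 in AU_Sham and 7.40, 7.26, 7.24 and 7.37 in AI_Sham. The young and aged sham animals did not overlap, as was so for 1.12% of all probes, and the adjusted p was 0.461. The median over the 45 genes was 0.014 in hippocampus (all probes -0.029) and 0.0091 in cortex (-0.017). In hippocampus this median was -0.079 with quantile normalization and -0.069 with normexp, so that the higher levels listed above depend on the scaling at least in part. Intervals reached at most 0.68 from 0 in hippocampus and 0.77 in cortex, Psma8 left out.

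AI and AU animals were compared after sham to ask whether cognitive status went with proteasome levels. In hippocampus, AU_Sham 2 to 4 lay on slide 1 and AI_Sham 2 to 4 on slide 2, and in cortex they lay on slides 3 and 4. Only the animals numbered 1 shared a slide, so that status and slide largely cannot be told apart. The median difference of the genes in hippocampus was -0.058, and 0.041 with slide as a block. No gene was called, beside 0% of probes in hippocampus and 0% in cortex. By limma 0 proteasome genes in hippocampus (3.98% of all probes) and 1 in cortex (6.22%) had an unadjusted p under 0.05. The latter was Psmc3ip, with AU_Sham levels of 0.48, 1.63, 1.76 and 1.66 and AI_Sham levels of 1.98, 1.93, 1.69 and 1.93. The groups overlapped, AU_Sham 1 lay far below the others, and the difference of 0.50 (limma adjusted p 0.725) was 0.20 without that animal. Psma5 did not overlap between the groups in cortex, as was so for 3.52% of all probes, with a difference of -0.26 (95% interval -0.59 to 0.065, adjusted p 0.888). In hippocampus Psme2 differed by 0.20 (95% interval -0.07 to 0.48) and the deubiquitinase Psmd14 by -0.28 (95% interval -0.66 to 0.10), both with an adjusted p of 1.00.

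The median deviation of 44 proteasome genes from their mean over all rats was computed for each animal, as a description. It ran from -0.17 to 0.16 in hippocampus and from -0.20 to 0.12 in cortex, with an SD within groups of 0.0743 and 0.0703. In hippocampus the group means ran from -0.037 (AI_Sham) to 0.042 (AI_iTBS). In cortex they ran from -0.073 (AU_iTBS) to 0.069 (AI_iTBS), and the lowest animals were 2 AU_iTBS cortices and 1 AI_Sham cortex. With quantile normalization AU_iTBS had a mean of 0.017 and AU_Sham of 0.016 in cortex, so that the order of these groups depended on the scaling. None of the cell type lists had a called marker in the iTBS, age or cognitive comparisons.

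**Figure D5:**
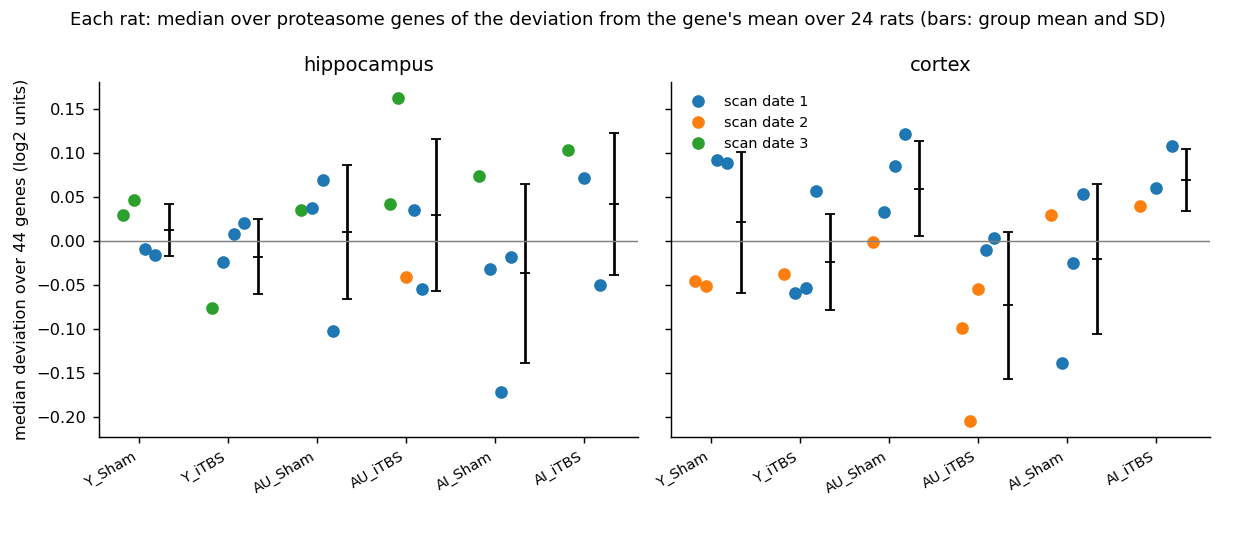
Median deviation of 44 proteasome genes from their mean over the 24 rats, in normalized log2 units, for each rat by group and region; colors give the scan date, and bars the group mean and SD. Groups overlap in both regions, and AU_iTBS cortex holds the lowest animal (-0.20).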

How the data were processed

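Total RNA of hippocampus and parietal cortex of 24 rats was read on 56 Agilent 1-color arrays, namely 48 first arrays, 7 technical repeats and 1 array of no assigned group. The authors deposited scanner files from Feature Extraction 12.0.3.1, whose processed signal intensity is background-subtracted per the file headers, and a table of z-scores, a score per probe and array that matched the z-score of the log signal on all 56 arrays within 0.005. Here log2 intensity was taken from the scanner files, spots with outlier flags were left out, copies of a probe were averaged, and each array was scaled to mean 0 and the mean SD over arrays (4.08). Probes entered the tests of a region if 3 or more of its 24 arrays had them well above background. Probes were named through RefSeq by accession, which gave a symbol to 46.3% of 45598 probes, and 48 of these belonged to the 45 genes. Fits used limma 3.58.1 in R 4.3.3, with 6 group means per region (18 residual degrees of freedom) or, between regions, the differences within an animal, and Benjamini-Hochberg adjustment over all probes tested. The fits were tested on simulated data. The genes, the pathway and marker lists and the tests were chosen with earlier results of these data known. Genes were named by rule: the active-site, activator, ubiquitin receptor and deubiquitinase genes always, the 10 called genes with the largest region difference, the 3 smallest, the largest of each role, and the 2 with the smallest p elsewhere. Others in the text were chosen after their values were seen. Other scalings, filters, blocks for slide, scan date or replicate number, and leaving out each animal were run as alternatives, and the split by scan date and the settings for genes named beside the rule were added after seeing the data. The study's selection rule was a one-way analysis of variance and a z-test with a false discovery rate limit of 0.3 and a z-ratio limit of 1.5. Regions were paired by animal through the group and number in the sample titles. Of the 24 hippocampi, 8 correlated best with the cortex of the same title number and group. The median r was 0.125 for the same animal and -0.0073 for other animals, so that the pairing rests on the labels. Replicate numbers were not taken to pair animals across groups. Same-numbered animals had a median correlation of 0.059 in hippocampus (-0.233 to 0.41) and 0.077 in cortex (-0.256 to 0.428). For other numbers the medians were -0.019 and -0.047. In every group the first arrays numbered 1 were scanned on a later date, so that number and scan date are partly confounded.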

Additional observations from a re-analysis of the deposited data

Results flagged for a closer look

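In 320 groups of 4 or 5 animals, over 31 named genes and the median over the proteasome genes in both regions, 27 held an animal whose gap to the nearest other was a larger part of the group's range than Dixon's 95% value. None of the 27 was a median. Chance gives about 1 in 20 such groups. Values are normalized log2 levels, each with that of the nearest animal of its group. In hippocampus, Y_Sham 4 stood apart for Psmb5 (7.42, nearest 7.30). Y_Sham 2 stood apart for Psmb6 (7.33, nearest 7.26). Y_iTBS 1 stood apart for Psmb5 (7.05, nearest 7.55), Psma3 (4.62, nearest 4.19) and Psmb4 (7.49, nearest 7.76). Y_iTBS 3 stood apart for Psmc3ip (1.69, nearest 2.06). Y_iTBS 4 stood apart for Psma8 (-1.99, nearest -4.62). AU_Sham 4 stood apart for Psme2 (6.24, nearest 6.71), Psmb3 (6.64, nearest 6.91) and Psme3ip1 (3.62, nearest 3.81). AU_Sham 1 stood apart for Psmd10 (3.37, nearest 2.74) and Psmb4 (7.64, nearest 7.89). AU_iTBS 2 stood apart for Psme3 (3.59, nearest 4.03). AU_iTBS 1 stood apart for Psmc3ip (1.47, nearest 2.02).

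In cortex, Y_Sham 4 stood apart for Psmf1 (4.82, nearest 5.93). Y_Sham 2 stood apart for Psmd4 (7.07, nearest 7.22). Y_Sham 3 stood apart for Psmd14 (4.50, nearest 4.31). Y_Sham 1 stood apart for Psma8 (-4.00, nearest -2.79) and Psmb2 (7.22, nearest 7.35). Y_iTBS 1 stood apart for Psme2 (6.31, nearest 6.82), Psmd5 (3.07, nearest 2.56) and Psma3 (4.75, nearest 4.12). Y_iTBS 2 stood apart for Psmd14 (4.04, nearest 4.34). AU_Sham 1 stood apart for Psmc3ip (0.48, nearest 1.63). AU_Sham 3 stood apart for Psmd2 (8.75, nearest 8.63). AU_iTBS 5 stood apart for Psme1 (6.41, nearest 6.07). AI_Sham 1 stood apart for Psmc1 (7.57, nearest 8.61). Without AU_Sham 1, the cortex difference of Psmc3ip between AI and AU sham animals was 0.20 in place of 0.50.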

How the results depend on the processing

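With no proteasome gene called in the 14 comparisons other than that of regions under any setting, stability there says only that none passed. Differences that were not called could change sign between settings. Between regions, 15 genes were called, 0 with slide as a block and 3 in the 9 animals of later scan dates, a split chosen after seeing the data, and the median difference of -0.024 was -0.21 with slide as a block. The call of Psmc1 between regions turned to 0.12 in the later animals, and with slide as a block those of Psmb2 and Psmb3 turned to -0.15 and -0.13, none of these called. The cause was not tested. Medians moved by more than the spread between animals in these cases. With slide as a block, the median was 0.087 for iTBS in AU hippocampus, 0.041 for AI minus AU sham hippocampus and -0.00735 for AI minus AU sham cortex. In later animals it was -8.36e-05 for iTBS in AI hippocampus, 0.054 for AI minus AU sham hippocampus and 0.016 for AI minus AU sham cortex. With 75th percentile scaling it was 0.0068 for iTBS in AU cortex and 0.0023 for AI minus AU sham cortex. With quantile normalization it was 0.046 for iTBS in AU cortex and -0.079 for aged minus young sham hippocampus, and with normexp 0.015, 0.021 for AI minus AU sham cortex and -0.069. With the authors' table it was -0.0102 for iTBS in AU cortex. The other 180 medians moved by less than the spread between animals, though a sign could still change. Between regions the median was 0.0073 with quantile normalization and 0.067 in the later animals. A further 205 counts of calls were equal or close to the main ones. Of the values of named genes, 2233 kept their call or stayed uncalled, while 44 lost a call and 25 gained one.

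With the replicate block, 0 genes were called in each of the 14 comparisons, and the medians were 0.064 for iTBS in AI hippocampus and -0.063 in AU cortex. Between regions, 17 genes were called without the pairing by animal, beside 48.7% of all probes. The replicate block changed no other call.

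Leaving out each animal in turn gave 13 to 17 genes called between regions and 0 in the other comparisons, with medians from -0.033 to -0.013 between regions, 0.044 to 0.12 for iTBS in AI hippocampus and -0.12 to -0.063 in AU cortex. Between regions, 45.3% to 50.3% of all probes were called in these runs. Of the values of named genes, 30 lost a call (Psmb3, Psmb6 and Psmc1) and 11 gained one (Psma1, Psma7, Psmc2, Psmd14, Psmd8 and Psme1), all between regions. Dim probes such as that of Psma8 were limited by their signal over background.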
